A study of Mus musculus with 8 samples.

Results

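Foxo1, Foxo3 and Foxo4, the forkhead transcription factors of the FoxO family, and 7 genes known as their targets were followed through 4 groups of adult mouse neurospheres. The genes were chosen by name (Foxo1, Foxo3, Foxo4, Txnip, Pik3ip1, Irs2, Ccng2, Bcl6, Klf15 and Cat), and a probe was assigned to one of them when the transcript accession beside it in the scanner files matched that symbol in a RefSeq table. Of the 10 genes, 9 had a probe. They had 12 probes in all, all 12 of which were bright enough to be kept, and they stand among 13327 genes measured. Irs2, an adaptor that links the insulin receptor to PI3K, was matched by 0 probes and has no value here.

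FoxO factors switch on genes of cell cycle arrest, DNA repair, antioxidant defence, fasting metabolism and cell death when growth factor signals fade or oxidative stress appears. Insulin and growth factors act against them through PI3K and AKT, which phosphorylates FoxO proteins and so keeps them out of the nucleus. SIRT1 is an NAD-dependent deacetylase that removes acetyl groups from FoxO proteins and shifts which of their targets respond, and FoxO factors are known to restrain the division of adult neural stem cells. Most of this control acts on the protein, which arrays do not measure.

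The cells were secondary neurospheres, floating clusters grown by dissociating and reseeding the primary clusters formed by hippocampal stem and progenitor cells of mice aged 7 to 9 weeks. The WT and Sirt1 KO groups came from mice of strain 129/ICR, with the Sirt1 allele not given in the labels, and were harvested after 6 days of culture; replicate 1 of each was female and replicate 2 male. The DMSO and resveratrol groups came from WT male C57BL/6 mice and were grown for 5 days, then given the solvent DMSO or the polyphenol resveratrol for 24 hours (labelled 10 "mm"). All groups grew in Neurobasal A with B27 minus retinyl acetate, EGF and bFGF (20 ng/ml each) and heparin. Each group had 2 arrays. Apart from sex, nothing in the labels tells if the replicates of a group came from different animals or dishes, so the p-values reflect the spread among these arrays alone, which may be technical. The series title names loss and gain of SIRT1 function, and the comparisons ask how the genes differ without Sirt1 and after resveratrol.

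Each RNA was labelled with Cy3 and hybridised to 1 one-colour Agilent array. A level is the log2 of the processed signal of a probe minus the 75th percentile of its array, so that 0 is the 75th percentile. Probes differ in brightness, and levels are therefore compared between arrays and never between genes. Differences are log2 differences of group means over 2 arrays each, with the standard error (SE) from a limma fit to all 8 arrays; adjusted p-values are limma's, after Benjamini-Hochberg adjustment over 13327 genes, and a gene is called at an adjusted p under 0.05. Arrays of the same replicate number form a pair. The WT 2 and Sirt1 KO 2 arrays shared a slide, as did DMSO 1 with resveratrol 1 and DMSO 2 with resveratrol 2, and DMSO 1 with WT 1, so pair values lie within 1 slide except pair 1 of Sirt1 KO minus WT and pair 2 of DMSO minus WT. These are mixed cell populations, in which fewer cells of a type and less RNA per cell cannot be told apart.

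The 75th percentile of the signal ran from 716 to 871 on the replicate 1 arrays and from 249 to 377 on the replicate 2 arrays, and between 53.0% (WT 2) and 72.0% (DMSO 1) of 41174 probes were well above background by the scanner software, with 0 saturated spots. Sirt1 itself read 0.16 and 0.17 on the WT arrays and 0.42 and -0.073 on the Sirt1 KO arrays. Where its probe lies relative to the deleted part is not given, so these values check nothing. Markers of neural stem and progenitor cells were well above background for 11 to 12 of 12 genes per array, of oligodendrocyte precursors for 6 of 6 and of astrocytes for 6 to 8 of 8. Of 10 microglial markers 2 to 3 were, and Aif1, Cx3cr1, Ptprc and Itgam were on 0 arrays. Of 7 endothelial markers 1 to 3 were, and Pecam1, Cdh5 and Cldn5 were on 0 arrays.

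Promoter sequences are shown for the members with a FoxO or insulin response motif that had probes, Txnip and Ccng2, and for Klf15, the member with the smallest unadjusted p between DMSO and resveratrol. The 250 bases before the transcription start were searched on both strands in RefSeq (GRCm38.p6), which held windows for 9 of the 10 members, among 32851 windows in all. The FoxO core motif GTAAACA, which reads as TGTTTAC when it lies on the other strand, was found in 3.17% of all windows and, among the members, in Txnip, 121 bases before the start. The insulin response element CAAAACAA (TTGTTTTG) was found in 2.21% of windows, and among the members in Ccng2, 16 bases before the start, and Irs2, 38 bases before it. The E-box CACGTG was found in 6.02% of windows, in Klf15 at 228 and 172 bases, in Bcl6 at 60 and in Irs2 at 44 bases before the start. The motifs do not overlap each other in the sequences printed, and a match describes the letters only. The lines give Txnip (chr3:96557807-96557956, plus strand), Ccng2 (chr5:93267493-93267572, plus strand) and Klf15 (chr6:90462326-90462575, plus strand), 5′ to 3′ and ending at the base before the start, with the motif in capitals.
Txnip: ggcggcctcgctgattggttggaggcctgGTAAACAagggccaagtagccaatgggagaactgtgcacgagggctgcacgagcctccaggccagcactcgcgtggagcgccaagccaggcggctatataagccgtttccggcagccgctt
Ccng2: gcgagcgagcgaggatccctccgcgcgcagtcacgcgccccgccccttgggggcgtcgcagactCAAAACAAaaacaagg
Klf15: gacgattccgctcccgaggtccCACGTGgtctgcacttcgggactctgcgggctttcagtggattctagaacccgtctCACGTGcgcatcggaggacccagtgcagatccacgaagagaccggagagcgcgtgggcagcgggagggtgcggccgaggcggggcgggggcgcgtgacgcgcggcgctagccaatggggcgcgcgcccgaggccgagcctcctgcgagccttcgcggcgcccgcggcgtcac

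In Sirt1 KO neurospheres Txnip was higher than in WT by 1.73 (SE 1.01) on its brighter probe, which was not well above background on WT 2. A normexp background correction with local backgrounds turned this to -0.14. Its second, dimmer probe gave 0.29 (SE 0.90), with opposite signs in the pairs. The other measured members differed by 0.33 or less in either direction, apart from Pik3ip1, whose pairs differed in sign. None of the 9 measured members was called (limma, smallest adjusted p = 1), and 0% of all genes were called in either direction. An unadjusted p under 0.05 was reached by 0 of the 9 and by 158 of all genes, where 666 would be expected by chance. The same fit with the replicate number as a block also called 0 of the 9, and it called 57 of all genes. Txnip, by its brighter probe, was the only one of 9 whose Sirt1 KO arrays both lay above both WT arrays, which 7.6% of all genes showed. Below both lay 0 of 9, which 7.38% showed. The members were higher in both pairs for 1 of 9 (23.5% of all genes) and lower in both for 2 of 9, Foxo1 and Foxo4 (32.6%). Their median difference was -0.031, and that of all genes was -0.032.

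After resveratrol Klf15 was lower than in DMSO by 0.85 on the log2 scale (SE 0.24). Foxo4 differed by -0.71 (SE 0.50), with its spot not well above background on resveratrol 2. Cat was higher by 0.27 (SE 0.28), Foxo1 by 0.23 (SE 0.23) and Pik3ip1 by 0.54 (SE 1.47), none by more than its SE. Again 0 of 9 members were called (limma, smallest adjusted p = 1), and 0% of all genes were called in either direction. An unadjusted p under 0.05 was reached by 1 of the 9, Klf15, and by 203 of all genes, where 666 would be expected by chance. With the replicate block 0 of the 9 were called, and 73 of all genes were. The groups did not overlap for 2 members that were higher, Foxo3 and Pik3ip1 (10.2% of all genes), and for 2 that were lower, Klf15 and Foxo4 (8.86%). All 9 members had the same sign in both pairs, 5 higher (35.5% of all genes) and 4 lower (33% of all genes). The median over the members was 0.084, and over all genes 0.010.

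**Figure D1:**
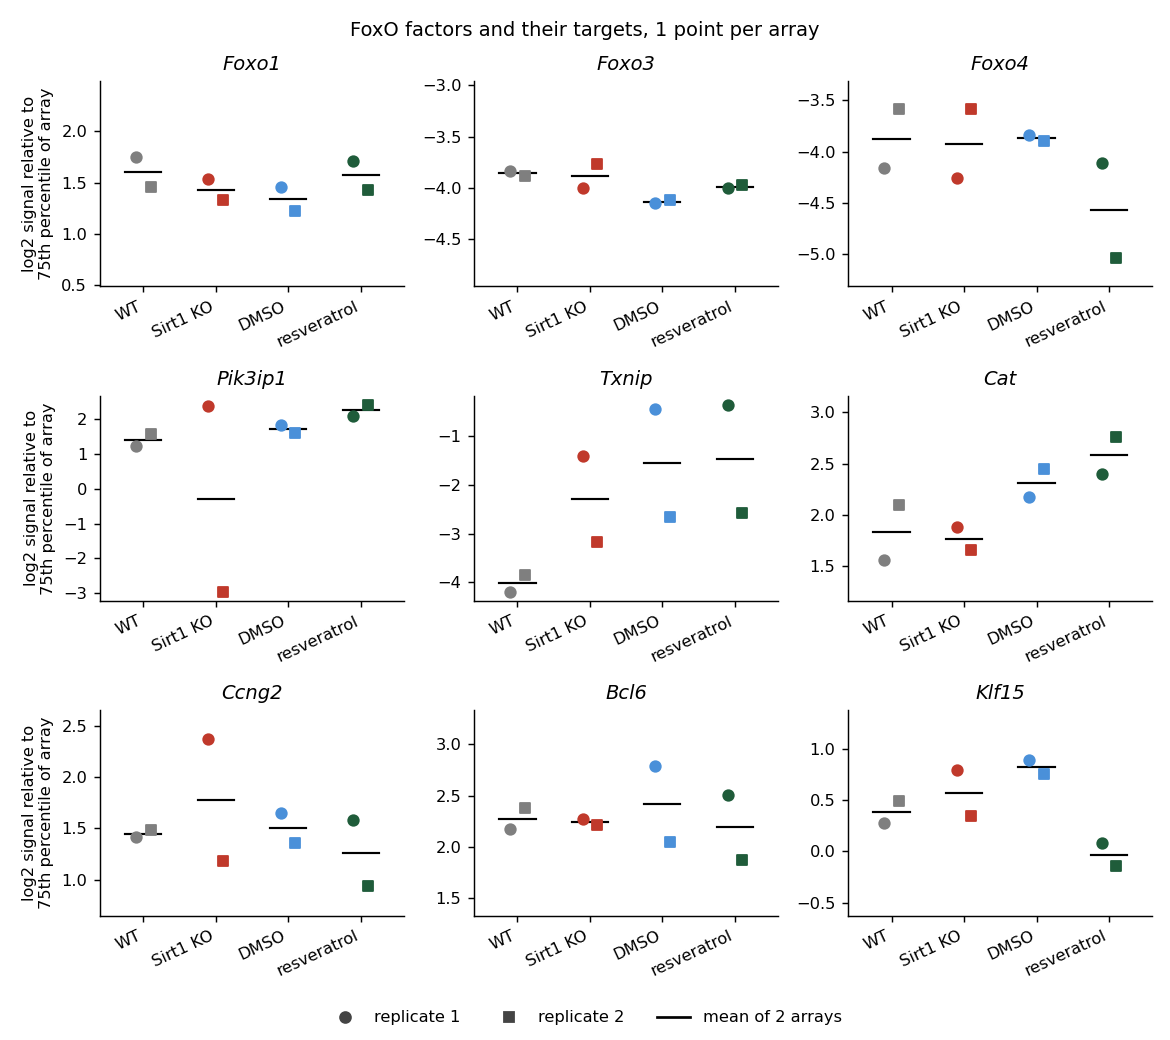
Level of the 9 measured genes on each array, as log2 signal relative to the 75th percentile of the array (vertical axes, each with its own range), by group; circles are replicate 1, squares replicate 2 and bars the mean of 2 arrays. The Txnip points, of its brighter probe, are lowest in WT (-4.19 and, not well above background, -3.85). The Klf15 points of resveratrol (0.081 and -0.15) lie below all others, and the Pik3ip1 point of Sirt1 KO 2 (-2.95) stands alone.

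None of the factors was called in any comparison, under any alternative run. Foxo1, the family member best known for insulin-controlled transcription, read 1.75 and 1.46 in WT, 1.53 and 1.33 in Sirt1 KO, 1.46 and 1.23 in DMSO and 1.71 and 1.43 in resveratrol. Every group overlapped its partner. The difference was -0.17 (SE 0.23) for Sirt1 KO minus WT and 0.23 (SE 0.23) for resveratrol minus DMSO, with pair values of -0.22 and -0.13 in the first and 0.25 and 0.20 in the second. A second Foxo1 probe ran the same way, at -0.23 (SE 0.20) and 0.23 (SE 0.20).

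Foxo3, the factor most often tied to neural stem cell maintenance, was dim. It read -3.83 and -3.88 in WT, -4.00 and -3.77 in Sirt1 KO, -4.15 and -4.12 in DMSO and -4.00 and -3.97 in resveratrol, and it was not well above background on WT 2. The Sirt1 KO arrays lay on either side of the WT arrays (-0.027, SE 0.36). A normexp correction with local backgrounds moved this to -0.94, and DMSO minus WT from -0.28 to -1.09. Both resveratrol arrays lay above both DMSO arrays, by 0.15 and 0.14 in the pairs (mean 0.15, SE 0.36), a difference smaller than its SE.

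Foxo4, the X-linked member of the family, read -4.16 and -3.59 in WT, -4.26 and -3.59 in Sirt1 KO, -3.84 and -3.89 in DMSO and -4.11 and -5.04 in resveratrol. Its spot was not well above background on WT 2 and resveratrol 2, so 1 of 2 resveratrol arrays measured it. WT and Sirt1 KO differed by -0.049 (SE 0.50), which became -1.19 with normexp and local backgrounds (DMSO minus WT became -1.18), and in each of these groups replicate 2 was the higher. The resveratrol minus DMSO difference was -0.71 (SE 0.50; limma, adjusted p = 1), and it turned to 0.037 and 0.020 with a normexp background correction using local backgrounds or 1 background per array. Foxo6, the family member found mainly in brain and not chosen with the others, differed by 0.33 (SE 0.81) in Sirt1 KO and -0.12 (SE 0.81) after resveratrol.

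Pik3ip1, a transmembrane inhibitor of PI3K and so a brake on the signal that keeps FoxO proteins in the cytoplasm, gave the most extreme value of any member. It read 1.23 and 1.57 in WT, 2.38 and -2.95 in Sirt1 KO, 1.82 and 1.61 in DMSO and 2.10 and 2.40 in resveratrol. Sirt1 KO 1 was above both WT arrays and Sirt1 KO 2 far below every other array, so the groups overlapped. The Sirt1 KO minus WT difference was -1.69 (SE 1.47; limma, adjusted p = 1), made of 1.15 in the female pair and -4.52 in the male pair.

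The Pik3ip1 spot of Sirt1 KO 2 sat in a dim patch of that array. Its 31 neighbours within 300 µm, which hold probes for other transcripts and were well above background on at least 6 arrays, read a median of 1.95 log2 units below their own medians over the 8 arrays (-1.95), and 15 of the 31 were more than 1 unit below. Around the same spot on the other 7 arrays this median lay between -0.12 and 0.30. Such a neighbourhood, with a median more than 1 unit below, was found for 37 of 25473 spots (0.145%) on Sirt1 KO 2 and for 0 spots on each of the other 7 arrays.

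The low values faded with distance from the Pik3ip1 spot. Between Sirt1 KO 2 and WT 2, the 29 spots within 300 µm differed by a median of -2.32, the 84 spots at 300 to 600 µm by -0.17 and the 216 spots at 1200 to 1500 µm by -0.020. Without Sirt1 KO 2 the Sirt1 KO minus WT difference of Pik3ip1 was 0.98. Without Sirt1 KO 1 it was -4.35 (limma, adjusted p = 0.028) and so was called, with the array of the dim patch as the lone Sirt1 KO array, which the fit assumes to vary like the other groups. The spots of the other 8 measured members and of the list genes named for a comparison had neighbourhood medians within 0.5 of 0 on all 8 arrays, unlike those of Stx7, Rab7b and Gbx2, described below.

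**Figure D2:**
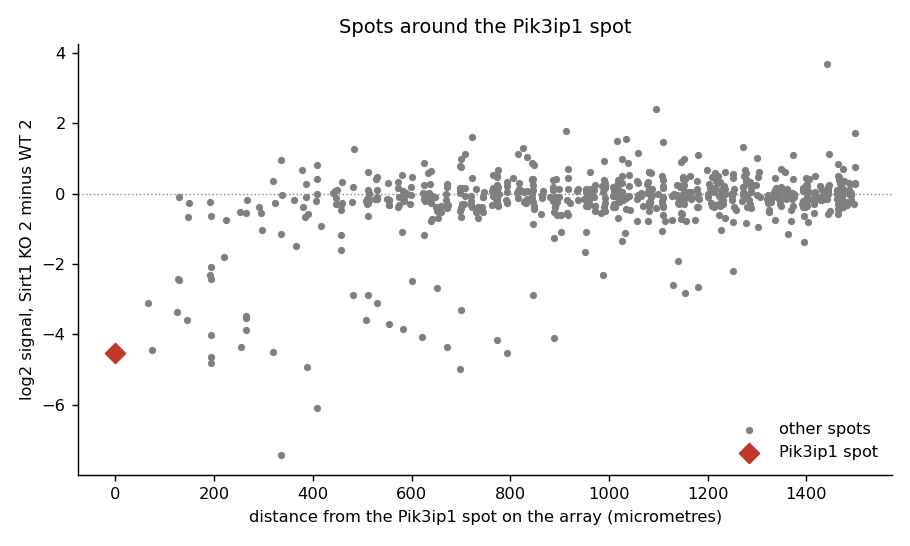
Log2 level on Sirt1 KO 2 minus that on WT 2 (vertical axis) for spots within 1500 µm of the Pik3ip1 spot, against their distance from it in micrometres on the array (horizontal axis); each grey point is another spot and the red diamond is Pik3ip1. The median is -2.32 within 300 µm and -0.020 at 1200 to 1500 µm.

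After resveratrol Pik3ip1 was above both DMSO arrays on both arrays, by 0.28 and 0.80 in the pairs. The mean difference of 0.54 had an SE of 1.47, which is wide because the fit pools the spread of Sirt1 KO. Insulin receptor, PI3K and AKT signalling was described by a list that includes Pik3ip1. Of its 25 measured genes 0 were called in either comparison; in Sirt1 KO 6 were higher and 7 lower in both pairs (median -0.0099), where 23.5% and 32.6% of all genes were, and after resveratrol 5 were higher and 13 lower (median -0.086), where 35.5% and 33% of all genes were.

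Single genes of that list differed by more. Sgk1, a kinase that phosphorylates FoxO factors as AKT does, read 1.71 and 1.14 in WT and 2.30 and 2.02 in Sirt1 KO, a difference of 0.73 (SE 0.31; limma, adjusted p = 1). Both Sirt1 KO arrays were above both WT arrays. Egfr, the receptor for the EGF in the medium, was higher by 0.36 (SE 0.28) and Sgk3 lower by 0.19 on the log2 scale (-0.19, SE 0.23), each without overlap. After resveratrol Pik3r3, a regulatory subunit of PI3K, was higher by 0.45 (SE 0.38).

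Enzymes and partners that modify FoxO proteins gave 0 called genes of 24 measured in Sirt1 KO and after resveratrol. In Sirt1 KO 3 were higher and 7 lower in both pairs (median -0.018; 23.5% and 32.6% of all genes), and after resveratrol 8 were higher and 7 lower (median -0.035; 35.5% and 33% of all genes). Mdm2, a ubiquitin ligase that acts on FoxO proteins and p53, read 0.54 and 0.11 in DMSO and 0.92 and 0.69 in resveratrol, a difference of 0.48 (SE 0.35). Its resveratrol arrays both lay above its DMSO arrays.

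Txnip, which binds and inhibits thioredoxin and limits glucose uptake, was lowest in WT by its brighter probe. It read -4.19 and -3.85 in WT, -1.41 and -3.18 in Sirt1 KO, -0.44 and -2.66 in DMSO and -0.36 and -2.57 in resveratrol. WT 2 was not well above background, so 1 of 2 WT arrays measured it. On this probe both WT arrays lay below the other 6, and outside WT replicate 1 was above replicate 2 in every group. On the second, dimmer probe WT 1 was the lowest array (-6.25, not well above background). WT 2 was the highest there (-3.30, well above background).

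The Sirt1 KO minus WT difference of Txnip was 1.73 (SE 1.01), made of 2.78 in the female pair and 0.68 in the male pair (limma, adjusted p = 1). The male value is set against WT 2, where the spot was at background, so neither its size nor its sign is a measured change. With normexp and local backgrounds the difference was -0.14, with 1 background per array 0.91, and with the mean of both Txnip probes 1.01. The second, dimmer Txnip probe was well above background on 5 of 8 arrays, which leaves out WT 1, Sirt1 KO 2 and resveratrol 2. It gave 1.98 in the female pair and -1.39 in the male pair. Both probes were thus higher in the female pair and had opposite signs in the male pair. Each pair value of the dimmer probe rests on an array at background, so neither is a measured change. Resveratrol and DMSO differed by 0.084 (SE 1.01), with 0.075 and 0.093 in the pairs.

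The other alpha-arrestins, relatives of Txnip that act in receptor traffic, were read beside it. Arrdc3 read -1.04 and -0.93 in WT and -0.14 and -0.68 in Sirt1 KO, a difference of 0.58 (SE 0.32) without overlap. Arrdc1 read -2.87 and -3.36 in DMSO and -2.26 and -0.22 in resveratrol, higher by 1.87 (SE 0.68; limma, adjusted p = 1), with 0.61 and 3.14 in the pairs. Most of that difference came from the resveratrol 2 array. Of the 14 genes in the list of alpha-arrestins, thioredoxins and their MondoA partners, all measured, 0 were called; 5 were higher and 5 lower in both pairs in Sirt1 KO (median 0.13; all genes 23.5% and 32.6%), and 7 were higher and 4 lower after resveratrol (median 0.076; all genes 35.5% and 33%). Txnrd1, which reduces the thioredoxin that Txnip blocks, was lower in Sirt1 KO by 0.40 on the log2 scale (-0.40, SE 0.35) and higher after resveratrol by 0.68 (SE 0.35), without overlap in either.

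**Figure D3:**
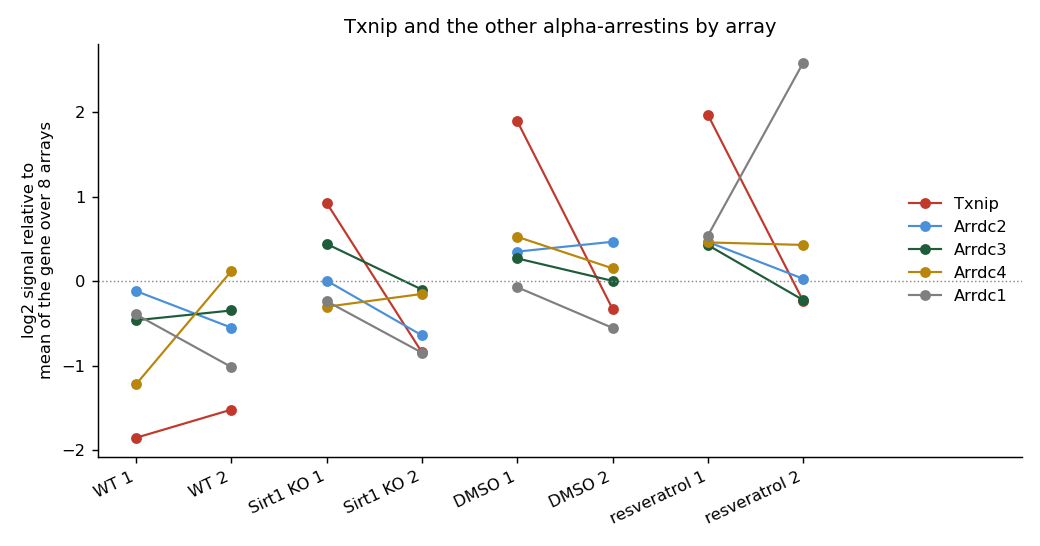
Log2 signal of Txnip and 4 other alpha-arrestins on each of the 8 arrays (horizontal axis), relative to the mean of each gene over the 8 arrays (vertical axis); lines join the 2 arrays of a group. Txnip, by its brighter probe, has its lowest values on both WT arrays, and Arrdc1 is highest on resveratrol 2.

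Cat encodes catalase, the peroxisomal enzyme that breaks down hydrogen peroxide. It read 1.56 and 2.10 in WT, 1.88 and 1.66 in Sirt1 KO, 2.17 and 2.45 in DMSO and 2.40 and 2.76 in resveratrol. The 4 arrays of the treatment groups all lay above the 4 genotype arrays. Within the arms the groups overlapped: Sirt1 KO minus WT was -0.062 (SE 0.28), with 0.32 and -0.44 in the pairs, and resveratrol minus DMSO was 0.27 (SE 0.28), with 0.23 and 0.31.

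With Cat, the genes that remove hydrogen peroxide and superoxide were higher after resveratrol in both pairs for 12 of 15 measured and lower in 0, against 35.5% and 33% of all genes, with a median of 0.23; in Sirt1 KO 3 were higher and 9 lower (median -0.078), against 23.5% and 32.6%. None of the 15 was called in either comparison. The lists were chosen with earlier results of these data known. Cat is in this list and in the antioxidant and peroxisome lists below, so their counts are descriptive and not separate evidence. Srxn1, which repairs oxidised peroxiredoxins, read 0.89 and 1.32 in DMSO and 2.56 and 4.16 in resveratrol, the largest difference of the list. It is also, like Txnrd1, a classic target of NRF2, the regulator of antioxidant genes. With the replicate number as a block, which in this arm is the slide, Srxn1 was called (2.25; limma, adjusted p = 0.0163), and without resveratrol 2 its difference was 1.46. Of the FoxO targets of antioxidant defence 9 of 13 were higher in both pairs after resveratrol and 1 was lower (median 0.17; all genes 35.5% and 33%), among them Sesn2, a stress-induced regulator of mTOR signalling, at 0.54 (SE 0.35). In Sirt1 KO 4 were higher and 4 lower (median -0.060; all genes 23.5% and 32.6%), with Sesn3 at 0.35 (SE 0.25).

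Cat is also a peroxisome marker, and the list of 20 peroxisome genes, all measured, had 13 higher and 3 lower in both pairs after resveratrol (median 0.11; all genes 35.5% and 33%). Phyh, which starts the breakdown of phytanic acid in peroxisomes, was higher by 0.48 (SE 0.35). Sirt1 KO gave 5 higher and 2 lower (median 0.072; all genes 23.5% and 32.6%). No gene of the list was called in either comparison.

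Ccng2, cyclin G2, is a FoxO target that slows the cell cycle. It read 1.41 and 1.48 in WT, 2.37 and 1.18 in Sirt1 KO, 1.65 and 1.35 in DMSO and 1.58 and 0.93 in resveratrol. Sirt1 KO 1 was the highest of the 8 arrays, and Sirt1 KO 2 lay below both WT arrays. The Sirt1 KO minus WT difference was 0.33 (SE 0.42), with 0.95 and -0.30 in the pairs, and without Sirt1 KO 1 it was -0.27. Resveratrol minus DMSO was -0.24 (SE 0.42), with -0.068 and -0.42 in the pairs.

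Bcl6, a transcriptional repressor that FoxO factors induce, read 2.17 and 2.38 in WT, 2.28 and 2.21 in Sirt1 KO, 2.79 and 2.05 in DMSO and 2.51 and 1.88 in resveratrol. The Sirt1 KO arrays lay between the WT arrays. Replicate 1 was above replicate 2 in both treatment groups by more than the treatment difference of -0.23 (SE 0.33).

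Among the 14 FoxO targets of cell cycle arrest and DNA repair, all measured, 0 were called; 6 were higher and 2 lower in both pairs in Sirt1 KO (median 0.15; all genes 23.5% and 32.6%), and 5 were higher and 4 lower after resveratrol (median 0.049; all genes 35.5% and 33%). Cdkn1c, the cyclin-dependent kinase inhibitor p57, differed most in Sirt1 KO. It read 1.24 and 1.38 in WT and 2.71 and 2.89 in Sirt1 KO, a difference of 1.49 (SE 0.44; limma, adjusted p = 1) that was 1.47 and 1.51 in the pairs. With the replicate block, whose number is also sex here, it was called (limma, adjusted p = 0.00782). After resveratrol it differed the other way, from 2.76 and 2.07 in DMSO to 2.02 and 0.77 (-1.02, SE 0.44), and with the replicate block this difference was called (limma, adjusted p = 0.0331). The groups did not overlap in either comparison, and leaving out 1 array moved the resveratrol difference to between -1.65 (without resveratrol 1) and -0.40 (without resveratrol 2), with -0.68 without DMSO 1.

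Cell type markers differed in the same comparisons, given as the sum of linear signals relative to the 75th percentile. The 8 astrocyte markers summed to 85.9 and 149.8 in WT and 124.9 and 209.3 in Sirt1 KO, higher in both pairs. They summed to 175.2 and 159.3 in DMSO and 167.9 and 161.6 in resveratrol, with opposite signs in the pairs. The 7 mature oligodendrocyte markers summed to 6.45 and 7.53 in WT and 10.5 and 9.56 in Sirt1 KO, and to 10.5 and 8.90 in DMSO and 7.94 and 6.56 in resveratrol; of them Mog was well above background on 0 arrays. The mature oligodendrocyte sums were thus higher in Sirt1 KO and lower after resveratrol in both pairs, as Cdkn1c was. The 6 oligodendrocyte precursor markers had lower sums in both pairs of both comparisons. They summed to 172.2 and 194.9 in WT and 168.8 and 183.4 in Sirt1 KO. In DMSO they summed to 193.5 and 218.1, and in resveratrol to 163.3 and 164.4. Such sums give bright markers the most weight. The part of these markers in the Cdkn1c differences was not tested.

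Cdkn1a, the inhibitor p21, read 3.21 and 4.02 in DMSO and 4.17 and 5.32 in resveratrol, higher by 1.13 (SE 0.60). Gadd45a, a DNA damage response gene, was higher by 0.89 (SE 0.54) in Sirt1 KO and by 0.80 (SE 0.54) after resveratrol, overlapping in the second, which was 0.16 without resveratrol 2, 0.47 without DMSO 1 and 1.44 without resveratrol 1. Cited2, a transcriptional co-regulator, was higher after resveratrol by 0.77 (SE 0.31). In each of these 4 differences the limma adjusted p was 1.

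FoxO targets of cell death gave 3 higher and 0 lower of 7 measured in Sirt1 KO (median 0.042; all genes 23.5% and 32.6%), and 4 higher and 1 lower after resveratrol (median 0.17; all genes 35.5% and 33%), counted in both pairs, and 0 were called. Pmaip1, which encodes the BH3-only protein Noxa, was higher after resveratrol by 1.31 (SE 0.59), from -0.36 and 0.07 to 0.58 and 1.74. Bbc3, which encodes Puma, was higher by 0.92 (SE 0.70), and with the replicate block it was called (limma, adjusted p = 0.0356). It was 0.25 without resveratrol 2, 0.49 without DMSO 1 and 1.601 without resveratrol 1. Its DMSO 2 array lay above resveratrol 1. Pmaip1 and Bbc3, like Cdkn1a and Mdm2, are also classic targets of p53.

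Klf15, a Krüppel-like factor of fasting metabolism that both FoxO factors and the glucocorticoid receptor are known to induce, gave the treatment difference with the largest moderated t in size among the members. It read 0.28 and 0.49 in WT, 0.79 and 0.34 in Sirt1 KO, 0.89 and 0.75 in DMSO and 0.081 and -0.15 in resveratrol. Both resveratrol arrays lay below the other 6. The difference from DMSO was -0.85 (SE 0.24), 1.81-fold, with -0.81 and -0.89 in the pairs (limma, unadjusted p = 0.0106, adjusted p = 1).

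By the size of its moderated t, Klf15 ranked 46 of 13327 genes in that comparison. Its difference kept its sign and stayed uncalled under every alternative run, between -0.97 and -0.61. A second, dimmer Klf15 probe, well above background on 7 of 8 arrays, gave -0.65 and -0.080 in the pairs. Sirt1 KO minus WT was 0.19 (SE 0.24), with 0.52 and -0.14 in the pairs, and the Klf15 difference was lower after resveratrol than in Sirt1 KO by a difference between differences of -1.04 (SE 0.34; limma, unadjusted p = 0.0203, adjusted p = 1). For this difference between differences 0 of 13327 genes were called, and 126 had an unadjusted p under 0.05 (666 expected by chance).

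Other targets of the glucocorticoid receptor were listed beside Klf15. Of 16 measured, 9 were higher and 2 lower in both pairs in Sirt1 KO (median 0.21; all genes 23.5% and 32.6%), and 7 were higher and 2 lower after resveratrol (median 0.027; all genes 35.5% and 33%), and 0 were called. Fkbp5, a co-chaperone of the receptor and one of its most used readouts, read -1.63 and 0.59 in DMSO and -1.94 and -1.55 in resveratrol (-1.22, SE 0.65). DMSO 2 alone stood high, and the groups overlapped. Ddit4, an mTOR inhibitor, was higher in Sirt1 KO by 0.66 (SE 0.41) and the clock gene Per1 by 0.39 (SE 0.28).

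The list of FoxO targets of metabolism and autophagy had 8 genes higher and 1 lower in both pairs of 16 measured in Sirt1 KO (median 0.081; all genes 23.5% and 32.6%), and 8 higher and 5 lower after resveratrol (median 0.11; all genes 35.5% and 33%), and 0 were called. Pdk4, which shuts pyruvate out of the mitochondrion, read -3.70 and -3.46 in WT and -3.17 and -2.66 in Sirt1 KO, higher by 0.67 (SE 0.43), and it was higher by 0.79 (SE 0.43) after resveratrol. Fbxo32, the muscle atrophy ubiquitin ligase atrogin-1, was higher by 0.52 (SE 0.40) and 0.86 (SE 0.40). Both are dim, and with normexp and local backgrounds their Sirt1 KO differences turned to -0.72 and -0.68. Genes listed as repressed by FoxO factors were lower in both pairs in Sirt1 KO for 4 of 6 measured and higher in 0. Their median was -0.29, and of all genes 32.6% were lower and 23.5% higher. Among the 4 was Cad, the first enzyme of pyrimidine synthesis (-0.29, SE 0.24), which turned to 0.037 with the same correction. Whether FoxO factors repress the listed genes in these cells was not tested. After resveratrol 1 was higher and 2 lower (median -0.021; all genes 35.5% and 33%).

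**Figure D4:**
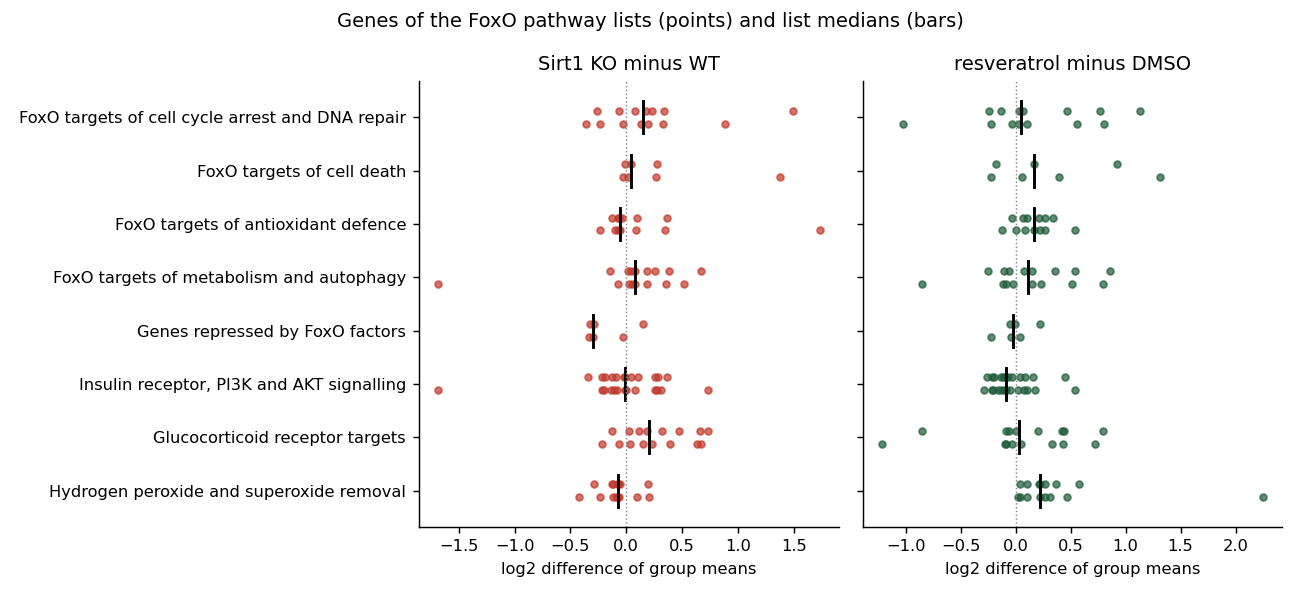
Log2 difference of group means for each measured gene of 8 lists (points) with the list median (black bars), with Sirt1 KO minus WT at left and resveratrol minus DMSO at right (horizontal axes); the dotted line is 0. The medians run from -0.29 to 0.21 in Sirt1 KO and from -0.086 to 0.23 after resveratrol.

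The control groups of both arms were also set against each other. DMSO and WT differ in strain, solvent and, in replicate 1, sex. In replicate 2 they differ in slide and scan day. Their difference cannot be told apart into these parts, and it shares its arrays with the comparisons above. Of all genes 10 of 13327 were called, 4 higher (0.03%) and 6 lower (0.045%), and 0 of the 9 members. An unadjusted p under 0.05 was reached by 1 of the 9, Txnip, and by 746 of all genes (666 expected by chance). Members whose DMSO arrays lay above both WT arrays numbered 4 of 9 (12.7% of all genes): Txnip, Cat, Klf15 and Pik3ip1. Foxo1 and Foxo3, 2 of 9, lay below without overlap (13.5% of all genes).

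Txnip was higher in DMSO than in WT by 2.47 (SE 1.01), with 3.75 in pair 1 and, against the WT 2 array at background, 1.19 in pair 2 (limma, adjusted p = 0.851). Without DMSO 1 the difference was 1.36. With the replicate number as a block, though nothing in the labels ties same-numbered arrays of these groups together, Txnip was called (limma, adjusted p = 0.00741). The same block called 1569 of all genes in DMSO minus WT. Under normexp with local backgrounds the difference was 0.27. These values are of the brighter Txnip probe. The second, dimmer probe gave 0.89 (SE 0.90), with opposite signs in the pairs. They were 2.33 in pair 1, where WT 1 was not well above background, and -0.55 in pair 2. Cat was higher by 0.48 (SE 0.28), Klf15 by 0.44 (SE 0.24) and Pik3ip1 by 0.32 (SE 1.47). Foxo1 was lower by 0.26 on the log2 scale (-0.26, SE 0.23) and Foxo3 by 0.28 (-0.28, SE 0.36), while Foxo4 (0.0073), Ccng2 (0.051) and Bcl6 (0.14) overlapped.

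Several arrest and stress genes of the lists differed between the control groups by more than the members other than Txnip. Cdkn1b, the inhibitor p27 and a classic FoxO target, read -0.20 and 0.45 in WT and 1.56 and 1.46 in DMSO, higher by 1.39 (SE 0.28; limma, adjusted p = 0.236). Bnip3, a mitochondrial protein of cell death and mitophagy, was higher by 2.47 (SE 1.30; 1.36 without DMSO 1) and Trib3, a pseudokinase that inhibits AKT, by 1.82 (SE 0.63). Arrdc4, Arrdc2 and Arrdc3 were higher by 0.89, 0.74 and 0.54, of which Arrdc4 had 1.75 in pair 1 and 0.033 in pair 2, and 0.22 without WT 1 and 1.56 without WT 2. Of the 14 genes in their list 7 were higher and 3 lower in both pairs (27.8% and 32.6% of all genes; median 0.43). Under normexp with local backgrounds Arrdc2 turned to -0.40. Cdkn1a was lower by 0.84 on the log2 scale (-0.84, SE 0.60), and Per1 higher by 1.12 (SE 0.28). With the replicate block Cdkn1b, Bnip3, Trib3, Cdkn1a and Per1 were called by limma, among 1569 of 13327 genes called. Nothing in the labels ties same-numbered arrays of WT and DMSO together, and these genes were named for their large moderated t.

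**Figure D5:**
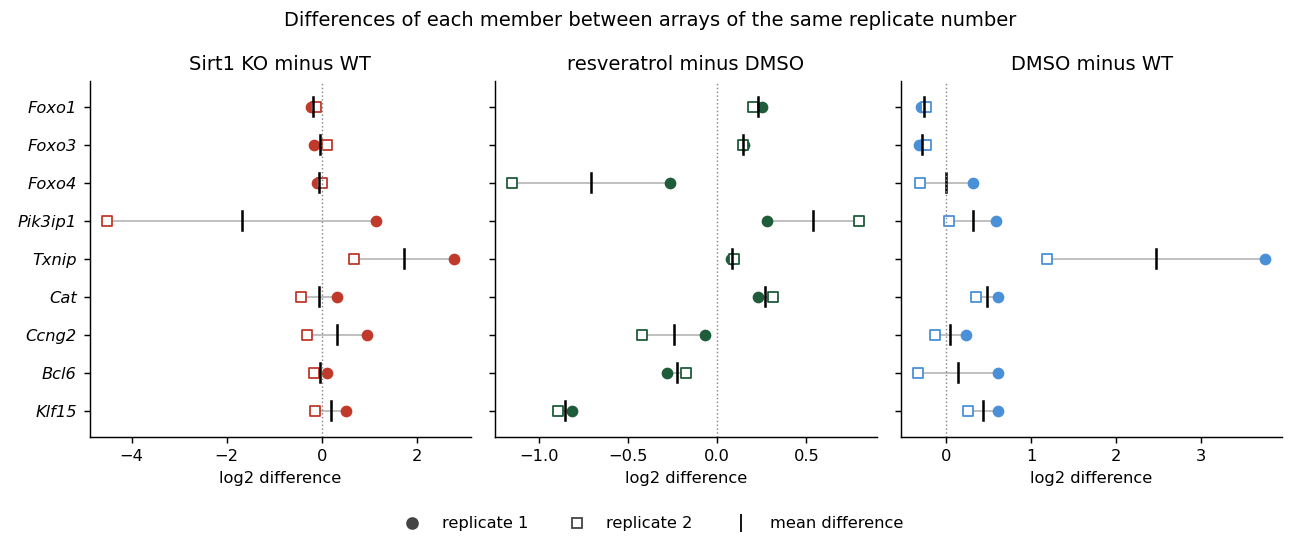
Log2 difference of each of the 9 measured genes in replicate 1 (filled circles) and replicate 2 (open squares), with the mean difference as a bar; the panels give Sirt1 KO minus WT, then resveratrol minus DMSO, then DMSO minus WT; the horizontal axes have different ranges. Both points of a gene lie on 1 side of 0 for 3 of 9 genes in the first panel and for all 9 in the second. Of all genes, 23.5% were higher and 32.6% lower in both pairs of the first comparison, and 35.5% and 33% in the second.

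Genes whose pattern over the 8 arrays came closest to a member were found for the 3 members of largest spread, Pik3ip1, Txnip and Foxo4, by the root mean square difference between gene-centred levels. The closest to Txnip were Selenbp1 (0.40), which encodes a selenium-binding methanethiol oxidase, the galectin gene Lgals4 (0.44) and Selenbp2 (0.46), a close relative of Selenbp1. Selenbp1 read -0.42 and 0.61 in WT, 1.94 and 1.04 in Sirt1 KO, 3.11 and 1.67 in DMSO and 3.57 and 1.92 in resveratrol. The WT arrays of Selenbp1 lay below the other 6, as on the brighter Txnip probe. Selenbp1 was picked for its likeness to that probe over the same arrays, so this adds no separate support for the Txnip values. Selenbp1 and Selenbp2 are similar in sequence, and their probes may share signal.

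The closest to Pik3ip1 were Stx7 (0.43), Rab7b (0.49) and Gbx2 (0.56). Their spots lay 264, 254 and 389 µm from the Pik3ip1 spot, and their neighbours on Sirt1 KO 2 were low by medians of -2.45, -3.12 and -2.53. On that array they read -1.72, -6.46 and -6.46, their lowest values. The closest to Foxo4 were Atp2b2, Slc7a3 and Cyp2d10, at 0.19 each.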

How the data were processed

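The arrays were scanned and read with Agilent Feature Extraction 10.7, per the submitters' processing notes. The deposited scanner files hold a processed intensity per spot, which that software had corrected for background and for trends across the array, per the file headers, with no scaling between arrays. In the authors' table of processed values, log2 numbers were normalized between arrays by a method not given in the sources used here; their medians were 6.28 on 6 arrays and 6.01 on the 2 arrays of the third slide, and they served as an alternative.

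Control spots and spots flagged as outliers were left out, spots of a probe were averaged, and log2 intensities were centred on each array's 75th percentile. Probes were kept where well above background on 2 arrays of at least 1 group (26360 of 41174). A RefSeq table (GRCm38.p6) named 26910 probes and left 14264 unnamed; the headers give another build, so no probe position is stated. Where a gene had several kept probes, the brightest was used. The main tests were limma 3.58.1 fits (R 4.3.3) of 4 group means to 8 arrays, two-sided, with eBayes variances following signal strength, checked on simulated data. Precision is limited by having 2 arrays a group.

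The file headers place WT 1, DMSO 1 and resveratrol 1 on slide 1, Sirt1 KO 1, DMSO 2 and resveratrol 2 on slide 2, and WT 2 and Sirt1 KO 2 on slide 3. Slide 3 was scanned on another day than slides 1 and 2. Deviations from the group means of same-numbered arrays correlated at 0.737 (WT with Sirt1 KO), 0.834 (DMSO with resveratrol) and 0.596 (WT with DMSO) over 13284 genes. The main fit leaves this shared part in its spread, so an uncalled gene there does not show that nothing changed. In the treatment arm the number is the slide, and in the genotype arm it is sex and scan day. The replicate block is therefore given beside results there that it changes. Between WT and DMSO the labels tie nothing to the number. Other alternatives were normexp (offset 50), quantile normalization, no filter, the mean of a gene's probes, no intensity trend, slide as a block, fits of 4 arrays and leaving out each array. The planned normexp took median signals, since the files hold no mean signals, and normexp with 1 background per array was chosen after seeing the data.

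The members and lists were chosen with earlier results of these data known. From each list up to 4 genes per comparison could be named, those with the largest moderated t and the same sign in both pairs; for the 3 members of largest spread the 3 genes closest in root mean square difference are named. Foxo6 and Sirt1 are named outside this rule. A gene of the lists is not reported here.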

Additional observations from a re-analysis of the deposited data

Results flagged for a closer look

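In the Sirt1 KO arm 6 of the 9 measured members had opposite signs in the female and the male pair, as did 44.0% of all genes. With 1 array per sex and genotype, the difference between the pairs was not tested. Catalase (Cat) was higher in the female pair by 0.32 and read -0.44 in the male pair, which is -0.76 for the male pair minus the female pair. Ccng2 gave 0.95 and -0.30 (male minus female -1.26), Klf15 gave 0.52 and -0.14 (-0.66), and Bcl6 gave 0.11 and -0.17 (-0.27). Foxo3 ran the other way, at -0.17 in the female pair and 0.12 in the male pair (0.29). For Pik3ip1 the pairs gave 1.15 and -4.52 (-5.67), and the male value comes from the array on which the spots around Pik3ip1 were low as well. The female pair lay on different slides and the male pair on 1 slide that was scanned on another day. Sex, slide and scan day therefore cannot be told apart.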

How the results depend on the processing

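Over 78 results and their alternatives other than left-out arrays, 733 of 771 values kept their direction and side of the threshold, 23 turned in direction and 15 passed the threshold. With an array left out, 600 of 624 kept both, 23 turned and 1 passed. With 2 arrays per group, and several members dim against background, small differences had no settled sign; the cause of the changes below was not tested unless stated.

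With the replicate block the genes called numbered 57 for Sirt1 KO minus WT, 73 for resveratrol minus DMSO, 1569 for DMSO minus WT and 49 for the difference between differences. It called a member in DMSO minus WT only. In Sirt1 KO minus WT it called Cdkn1c (limma, adjusted p = 0.00782). In DMSO minus WT it called Txnip (limma, adjusted p = 0.00741), Cdkn1b, Cdkn1c, Cdkn1a, Trib3, Bnip3, Per1, Stk3 and Setd7, and it changed no other call of a gene named in the text beyond those given for resveratrol minus DMSO. The DMSO minus WT count was 10, and it was 4 with normexp and local backgrounds, 18 with the value table of the authors, 143 with slide as a block and 5 in a fit of 4 arrays. With slide as a block Trib3 was called there (2.50; limma, adjusted p = 0.0375). Leaving out 1 array gave 0 to 4 genes called in DMSO minus WT, 0 to 5 in Sirt1 KO minus WT (5 without Sirt1 KO 1, 3 without Sirt1 KO 2) and 0 to 3 in the difference between differences.

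Normexp with local backgrounds turned Foxo1 (0.054), Txnip (-0.14), Bcl6 (0.30), Cat (0.21), Pdk4 (-0.72), Fbxo32 (-0.68) and Cad (0.037) in Sirt1 KO minus WT, Foxo4 (0.037) in resveratrol minus DMSO, Foxo1 (0.029), Foxo4 (-1.18), Fbxo32 (-0.63) and Arrdc2 (-0.40) in DMSO minus WT, and Foxo4 (1.23) and Txnip (0.26) in the difference between differences. With 1 background per array, Bcl6 turned in Sirt1 KO minus WT (0.036), and Foxo4 turned in resveratrol minus DMSO (0.020), DMSO minus WT (-0.14) and the difference between differences (0.17). Quantile normalization turned Foxo4 in DMSO minus WT (-0.011). With slide as a block, Foxo4 (0.16) and Bcl6 (0.21) turned in Sirt1 KO minus WT, and Pik3ip1 (-1.22) and Ccng2 (-0.20) in DMSO minus WT.

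Leaving out 1 array, which sets unlike replicate numbers against each other, gave ranges that crossed 0. For Sirt1 KO minus WT they were -0.15 to 0.091 for Foxo3, -0.38 to 0.29 for Foxo4, -4.35 to 0.98 for Pik3ip1, -0.27 to 0.92 for Ccng2, -0.14 to 0.073 for Bcl6, -0.039 to 0.41 for Klf15 and -0.33 to 0.21 for Cat. For resveratrol minus DMSO they were -1.03 to 1.195 for Txnip, -0.57 to 0.078 for Ccng2 and -0.59 to 0.14 for Bcl6. For DMSO minus WT they were -0.28 to 0.30 for Foxo4, -0.095 to 0.20 for Ccng2 and -0.22 to 0.51 for Bcl6. For the difference between differences they were -0.44 to 4.89 for Pik3ip1, -1.16 to 0.025 for Ccng2 and -0.56 to 0.17 for Bcl6.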
